A study of Mus musculus with 5 samples.

Results

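Closing the cranial neural tube requires the neural plate to bend and its folds to meet and fuse. As background, cells of the plate narrow their apical ends by contracting an actin and myosin belt at their junctions. Mice that lack regulators of this actin machinery can be born with an open brain. The 10 genes described here were listed by name as genes of cranial closure, with earlier results of these data known. They comprise the apical constriction factor Shroom3, the filament elongation factors Enah and Vasp, the membrane-bound actin organisers Marcks and Marcksl1, the actin-binding tyrosine kinases Abl1 and Abl2, the adhesion protein gene Vcl, and the transcription factors Grhl2 and Grhl3 of the surface ectoderm that flanks the plate. All 10 had a row among the 23284 gene symbols of the count tables.

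RNA was sequenced from neural tubes of 5 mouse embryos, which the labels place at E8.5 and the study's text at a later stage. The embryos were 2 EpoR -/- (EpoR-null), 2 EpoR +/+ (wild type) and 1 EpoR +/-, littermates of crosses between heterozygous parents, and the last 3 served as controls. EpoR, also written Epor, encodes the erythropoietin receptor, and the deletion was present in every cell of the null embryos and not in the nervous system alone. No treatment was given, and a tube taken by manual and enzymatic dissection can hold blood, vessel and mesenchyme cells besides neural ones. The labels do not say whether embryos with the same number shared a litter, so p-values measure the spread between these 5 libraries.

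Reads counted on genes ran from 19316126 to 41169218 per library, so that 3 reads corresponded to between 0.0715 and 0.152 CPM, the read count scaled to library size with TMM factors. Epor itself had 57 and 68 reads in wild type replicates 1 and 2, 7 and 19 in EpoR-null replicates 1 and 2, and 11 in the library labelled heterozygote. That library therefore had 0.475 CPM (95% Poisson interval 0.237 to 0.851), between the EpoR-null values of 0.354 and 0.669 CPM and below both wild type values (1.62 and 2.36 CPM). It also held the fewest reads of marker genes of other tissues. Its 7 erythroid, 8 mesenchyme and 6 endothelial marker genes summed to 44.2, 21.3 and 11.9 CPM. The other 4 libraries had 603 to 1693, 67.8 to 207 and 125 to 275 CPM. The 4 neural crest markers summed to 23.2 CPM in it and to 84.1 to 118 CPM in the others. The 7 neural progenitor markers summed to between 1261 and 1652 CPM in all 5 libraries. Calls among the closure genes and the lists are given below also without the library labelled heterozygote.

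Abl2 was the single closure gene that passed the test, and it fell in the EpoR-null neural tubes. Abl2, one of a pair of Abl kinases that bind actin through their own C-terminal domains, was at 81.9 and 74.2 CPM in wild type embryos 1 and 2, at 82.5 CPM in the library labelled heterozygote, and at 51.8 and 43.2 CPM in EpoR-null embryos 1 and 2. Control values are given in this order throughout. Both EpoR-null libraries lay well below every control. On the log2 scale the fold change came to -0.74 (SE 0.16, edgeR exact test, FDR 0.000416), a decrease of the mean from 79.5 ± 4.67 (SD, n = 3) to 47.5 ± 6.09 CPM (SD, n = 2). Of the 12703 genes tested, 7.31% passed FDR < 0.05, with 5.49% lower and 1.81% higher, so 1 of 8 tested closure genes did not set the closure genes apart from this background. An unadjusted p below 0.05 was reached by 4 of the 8 (Abl2, Enah, Abl1 and Marcksl1) and by 19.8% of all tested genes. Both EpoR-null libraries lay below every control for 4 of the 8 and above every control for 2, where 22.1% and 21.2% of all tested genes did so (43.3% in either direction). In neural tube RNA, fewer cells that express a gene and less RNA per cell cannot be told apart. Without the library labelled heterozygote Abl2 still passed (log2 fold change -0.72, FDR 0.0418), without wild type replicate 1 it did not (log2 fold change -0.72, FDR 0.0866), and the quasi-likelihood F-test of edgeR gave FDR 0.0618, in a fit where 0 genes passed and 3052 had an unadjusted p below 0.05. With offsets for length and GC content of transcripts, described further on, the log2 fold change of Abl2 was -0.19 (likelihood-ratio test of edgeR, FDR 0.9995).

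**Figure D1:**
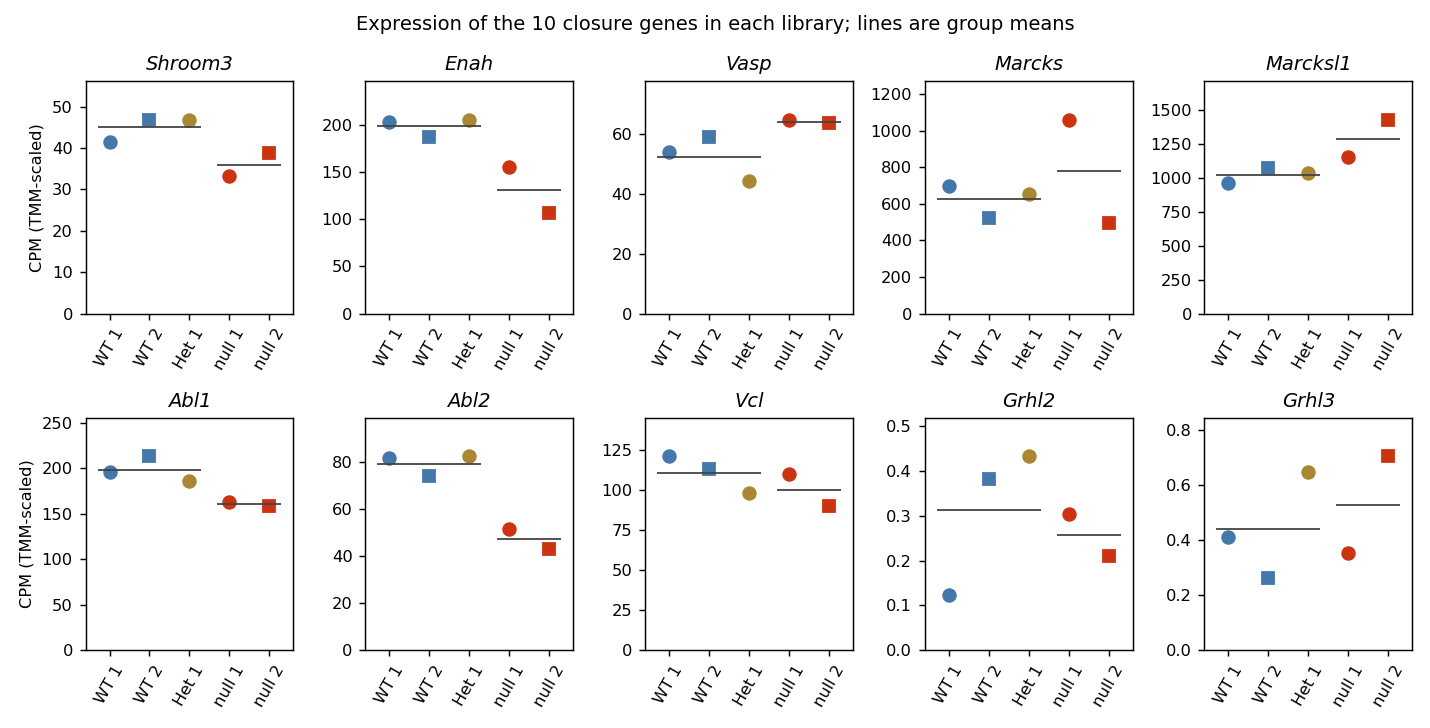
TMM-scaled CPM (vertical axes, each from 0) of the 10 closure genes in each of the 5 libraries (horizontal axes), with wild type in blue, the library labelled heterozygote in brown and EpoR-null in red. Circles are replicate 1, squares are replicate 2, and lines are group means. Abl2 lay at 74.2 to 82.5 CPM in controls and at 43.2 and 51.8 CPM in EpoR-null libraries, while the EpoR-null values of Marcks, 1061 and 497 CPM, fell on either side of the control range.

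Abl1, the paralogue of Abl2, had 196, 213 and 186 CPM in the controls and 163 and 159 CPM in the EpoR-null libraries. Both EpoR-null values were again below every control, with a smaller distance between the groups than for Abl2. Its log2 fold change of -0.30 (standard error 0.14, 95% interval -0.58 to -0.03) did not pass (exact test of edgeR, FDR 0.201), whereas DESeq2 gave FDR 0.0337. The ratio of Abl2 to Abl1 within a library does not depend on how libraries are scaled, but a trend on transcript length remains in it. The longest transcripts have 10.2 kb (Abl2) and 6.33 kb (Abl1). With offsets for length and GC content, their log2 fold changes were -0.19 and -0.06 (likelihood-ratio test of edgeR, FDR 0.9995 for each). The ratio was not computed with offsets. Without them it was 0.418, 0.348 and 0.444 in the controls and 0.317 and 0.273 in the EpoR-null libraries. The groups did not overlap for this ratio, and the mean log2 ratio was lower by -0.44 in EpoR-null (two-sided exact permutation test, p = 0.2, adjusted over 4 pairs 0.4, where 0.1 is the smallest p that 2 against 3 libraries allow). In GENCODE M21 on GRCm38, a later build than the mm9 of the counts, Abl2 lies on chromosome 1 from 156558786 to 156649568 (plus strand) and Abl1 on chromosome 2 from 31688376 to 31804227 (plus strand).

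Among the filament elongation factors, Enah and Vasp stood on opposite sides of the controls. Enah, which extends actin filaments at their growing ends, had 203, 187 and 206 CPM in the controls and 156 and 107 CPM in EpoR-null replicates 1 and 2. The EpoR-null libraries were both below the controls but differed from each other by more than the controls did. On the log2 scale Enah differed by -0.60 (SE 0.20, edgeR exact test, p = 0.00397), and its FDR of 0.0531 missed the threshold narrowly. With DESeq2 the FDR of Enah was 0.0165, with at least 10 reads required in every library it was 0.0392, and without the library labelled heterozygote it was 0.274. Enah lies on chromosome 1 from 181896384 to 182019990 (minus strand).

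Vasp, which shares the actin-binding and proline-rich architecture of Enah, had 54.0, 59.3 and 44.3 CPM in the controls and 64.9 and 63.7 CPM in the EpoR-null libraries. Both EpoR-null values were above all controls, and the lowest control was the library labelled heterozygote. Its log2 fold change was 0.29 (95% interval -0.07 to 0.65, exact test of edgeR, FDR 0.380) with that library and 0.18 (FDR 0.785) without it. Vasp lies on chromosome 7 from 19256929 to 19271817 (minus strand). Each library held 3.77, 3.16 and 4.64 reads of Enah for each read of Vasp in the controls, and 2.40 and 1.67 in EpoR-null. The ranges were separate, and the difference of the mean log2 ratio was -0.92 (two-sided exact permutation test, p = 0.1, adjusted over 4 pairs 0.4). The longest transcript of Enah has 11.2 kb and that of Vasp 2.22 kb. With offsets for length and GC content, the log2 fold changes of Enah and Vasp were 0.02 and 0.02 (likelihood-ratio test of edgeR, FDR 0.9995 for each). The ratio of Enah to Vasp was not computed with offsets. The third member of this family, Evl, named here after its values were seen, had 107, 114 and 95.6 CPM in controls and 115 and 111 CPM in EpoR-null, and its groups overlapped.

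**Figure D2:**
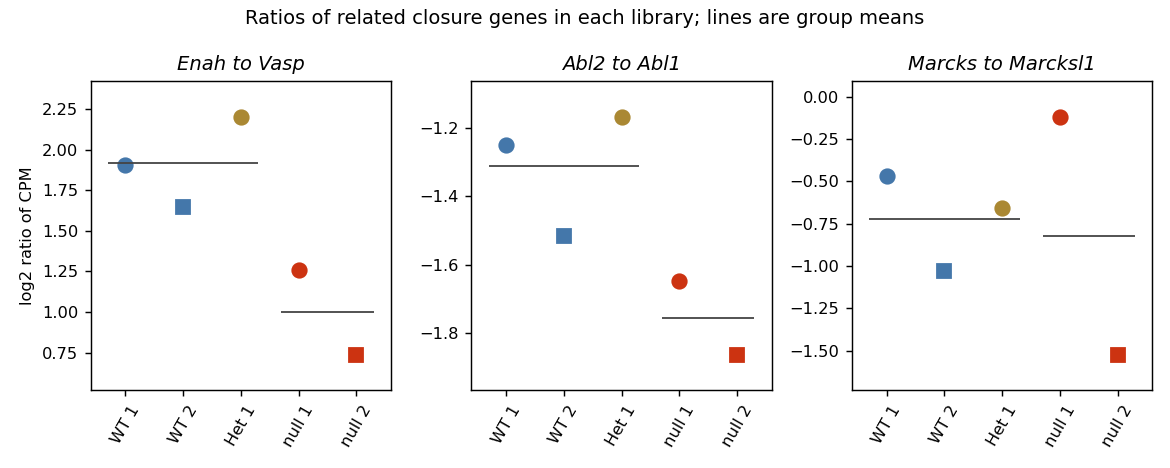
Log2 ratio of CPM (vertical axes, which do not start at 0) of Enah to Vasp, Abl2 to Abl1 and Marcks to Marcksl1 in each of the 5 libraries, with wild type in blue, the library labelled heterozygote in brown, EpoR-null in red and group means as lines. For Enah to Vasp the controls lay between 1.65 and 2.20 and the EpoR-null libraries at 1.26 and 0.74. For Marcks to Marcksl1 the EpoR-null libraries, at -0.12 and -1.52, enclosed the controls. No length or GC offsets were applied to these ratios.

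Marcks and Marcksl1 encode acidic proteins that bind the inner face of the plasma membrane and actin, and leave the membrane when protein kinase C phosphorylates them or calmodulin binds. Marcks had 697, 524 and 654 CPM in the controls, and 1061 CPM in EpoR-null replicate 1 against 497 CPM in EpoR-null replicate 2. One EpoR-null library thus lay above all controls and the other below them. Its log2 fold change of 0.32 had a standard error of 0.35, more than that of any other closure gene tested, and did not pass (exact test of edgeR, FDR 0.655). Compared with the controls, EpoR-null replicate 1 alone gave 0.76 (FDR 0.00118) and replicate 2 alone -0.33 (FDR 0.264), on the assumption that a lone library varies as the controls do. The 8 mesenchyme markers summed to 207 CPM in EpoR-null replicate 1 and 67.8 CPM in replicate 2, against 21.3 to 118 CPM in the controls, and their part in the spread of Marcks was not tested. Marcks lies on chromosome 10 from 37133375 to 37138920 (minus strand).

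Marcksl1 had 965, 1070 and 1033 CPM in the controls and 1151 and 1428 CPM in EpoR-null replicates 1 and 2. Both EpoR-null libraries were above the controls. For Marcksl1 the log2 fold change came to 0.33 (SE 0.16, 95% interval 0.01 to 0.66) and did not pass (exact test of edgeR, FDR 0.219). It passed with EpoR-null replicate 2 alone (0.48, FDR 0.00602) and not with replicate 1 alone (0.17, FDR 0.480). Marcksl1 lies on chromosome 4 from 129513581 to 129515985 (plus strand). The ratio of Marcks to Marcksl1 did not separate the groups, with 0.722, 0.489 and 0.633 in controls and 0.921 and 0.348 in EpoR-null (two-sided exact permutation test, p = 0.9).

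Shroom3, which recruits ROCK kinases to apical junctions and is needed for apical constriction, had 41.5, 46.8 and 46.7 CPM in the controls and 33.2 and 38.7 CPM in the EpoR-null libraries. The EpoR-null values were below every control, by a margin of the same order as the spread within each group. Shroom3 thus had a log2 fold change of -0.32 (SE 0.17, 95% interval -0.66 to 0.02, exact test of edgeR, FDR 0.293). Shroom3 lies on chromosome 5 from 92683435 to 92965318 (plus strand).

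Vcl, the gene of vinculin, which links junctions and focal adhesions to actin under tension, had 121, 113 and 98.0 CPM in the controls and 110.1 and 90.2 CPM in EpoR-null. The groups overlapped, and the log2 fold change was -0.15 (95% interval -0.48 to 0.19, exact test of edgeR, FDR 0.690). Vcl lies on chromosome 14 from 20929398 to 21033676 (plus strand).

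Grhl2 and Grhl3, needed in the surface ectoderm for fusion of the folds, were near the limit of detection and did not pass the filter of CPM above 1 in at least 2 libraries. Grhl2 had 3, 16 and 10 reads in the controls and 6 in each EpoR-null library. Grhl3 had 10, 11 and 15 reads in the controls and 7 and 20 in EpoR-null replicates 1 and 2. For both genes the groups overlapped, and a difference was not detectable at this depth. Of 16 surface ectoderm and Grhl target genes, 12 also did not pass the filter, Cdh1 and Epcam among them. The 4 that passed were Krt8, Krt18, Tfap2a and Tfap2c, and none of them was called. The 16 genes summed to 25.5, 36.3 and 11.9 CPM in the controls and 29.9 and 44.0 CPM in EpoR-null. These genes thus gave few reads in either group, and the share of surface ectoderm cells was not measured. Grhl2 lies on chromosome 15 from 37233036 to 37363569 (plus strand) and Grhl3 on chromosome 4 from 135541888 to 135573630 (minus strand).

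Levels of different genes were compared per kilobase of the longest annotated transcript. In the controls Marcksl1 stood first at 637 ± 33.3 CPM per kilobase (SD, n = 3), followed by Marcks at 154 ± 22.3 and Abl1 at 31.4 ± 2.18. Vasp (23.7 ± 3.43), Vcl (21.1 ± 2.23) and Enah (17.7 ± 0.904) came next, and the ranges of Vasp and Vcl overlapped. Abl2 (7.84 ± 0.460) and Shroom3 (6.66 ± 0.448) formed the lower end of the expressed genes, with Grhl3 (0.158 ± 0.0698) and Grhl2 (0.0632 ± 0.0334) far below. In the EpoR-null libraries Abl2 (5.11 and 4.26 CPM per kilobase) no longer stood above Shroom3 (4.91 and 5.73), and their ranges overlapped. The transcripts of Abl2 and Shroom3 have 10.2 and 6.76 kb. With the length and GC offsets described below, their log2 fold changes were -0.19 and -0.04 (likelihood-ratio test of edgeR, FDR 0.9995 for each). Marcks, at 192 ± 98.5 CPM per kilobase, was still below Marcksl1 at 803 ± 122 (SD, n = 2) in these libraries.

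The direction of the fold changes of the closure genes went with the length of their transcripts. Those with negative fold changes, Abl2 (10.2 kb), Enah (11.2 kb), Shroom3 (6.76 kb), Abl1 (6.33 kb) and Vcl (5.27 kb), all belonged to the longest quartile of tested genes, from 4947 bases up. Marcksl1 (1.60 kb) and Vasp (2.22 kb), with positive values, were in the shortest quartile, up to 2303 bases, and Marcks (4.05 kb) was in the third. Over all tested genes the median log2 fold change ran from 0.338 in the shortest quartile through 0.115 and -0.05 to -0.315 in the longest, where 19.2% of genes were called lower, against 0.35% in the shortest. The median of the 8 closure genes was -0.225, that of all tested genes 0.0562. The length trend ran with the groups, so a technical trend and a change of long transcripts with genotype cannot be told apart. Both are taken out by offsets, which remove each library's trend on transcript length and GC content. With them Abl2 had a log2 fold change of -0.19, Enah 0.02, Shroom3 -0.04, Abl1 -0.06, Vcl 0.05, Vasp 0.02 and Marcksl1 -0.06 (likelihood-ratio test of edgeR, FDR 0.9995 for each), while Marcks kept 0.35. No closure gene passed in this fit, where 1.34% of 12577 genes did (1.12% lower and 0.223% higher), and the median of the 8 was -0.0133.

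**Figure D3:**
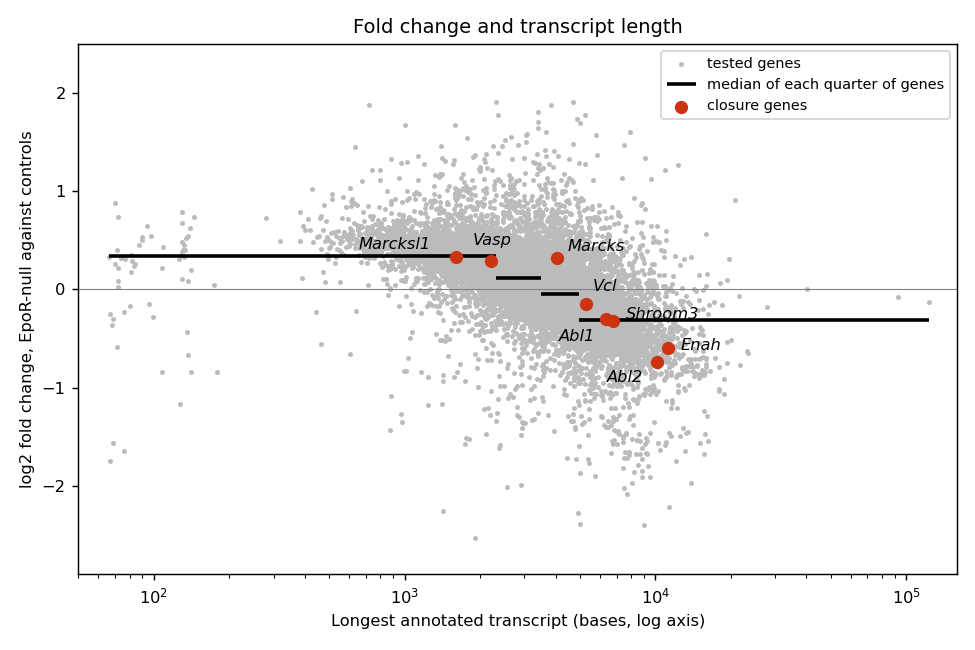
Log2 fold change, EpoR-null against controls (vertical axis), against the length of the longest annotated transcript in bases (horizontal log axis) for the tested genes with an annotated transcript (grey), with the 8 tested closure genes in red and the median of each length quartile as a black line. The medians fall from 0.338 to -0.315, and Abl2, Enah, Shroom3, Abl1 and Vcl lie in the longest quartile.

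**Figure D4:**
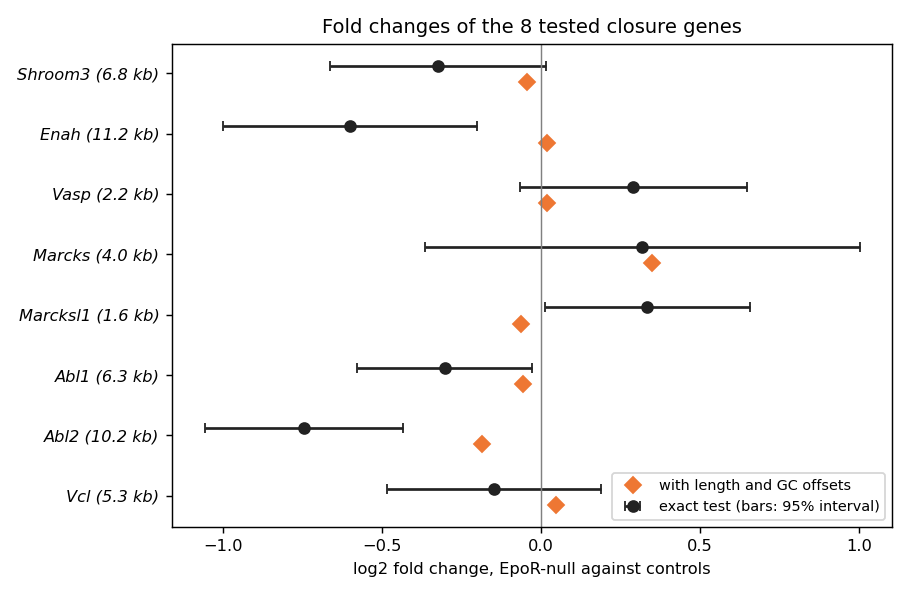
Log2 fold change (horizontal axis) of the 8 tested closure genes with its 95% interval from the standard error of the fit (black), and the value after length and GC offsets (orange, no interval). Transcript lengths stand beside the names. Abl2 moves from -0.74 to -0.19 and Enah from -0.60 to 0.02, while Marcks moves from 0.32 to 0.35.

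The machinery around the closure genes was described from 7 lists holding 144 genes, of which 130 were tested. Of these, 16 were lower (12.3%, beside 5.49% of all tested genes) and 5 were higher (3.85%, beside 1.81%), with a median log2 fold change of -0.0535. Without the library labelled heterozygote 9 were lower and 1 higher, beside 239 lower and 14 higher of all 12628 genes then tested. Without wild type replicate 1, 4 were lower and 0 higher (exact test of edgeR), beside 111 lower and 4 higher of 12598. With the length and GC offsets 4 were lower (Shroom4, Wasf2, Wasf3 and Itga6) and 1 was higher (Myl6), beside 1.12% and 0.223% of all genes.

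In the list of RhoA, ROCK and non-muscle myosin, the contractile partners of Shroom3, 4 of 20 tested genes fell and 3 rose. The other 13 did not pass, and over all tested genes 5.49% fell and 1.81% rose. Shroom4, a relative of Shroom3, had 14.8, 14.8 and 13.0 CPM in the controls and 5.10 and 2.75 CPM in EpoR-null (log2 fold change -1.86, standard error 0.36, exact test of edgeR, FDR 0.000156). Myh10, the heavy chain of non-muscle myosin IIB, had 519, 525 and 524 CPM in the controls and 358 and 302 CPM in EpoR-null (log2 fold change -0.66, FDR 0.000799). The controls of both genes lay close together, and their separation from the EpoR-null libraries is what the rule for naming genes selects. Rhoc, a small GTPase related to RhoA, had 22.9, 26.4 and 18.3 CPM in the controls and 44.6 and 35.7 CPM in EpoR-null (log2 fold change 0.83, FDR 0.0134). The others that passed, named after their values were seen, were the kinase Rock2 (-0.66) and the RhoA activator Arhgef12 (-0.66) among the lower genes, and the myosin light chains Myl6 (0.65) and Myl12b (0.48) among the higher ones. With offsets Shroom4 kept -1.44 (likelihood-ratio test of edgeR, FDR 0.000601) and Myl6 kept 0.51 (FDR 0.0310), while Myh10 had -0.27 (FDR 0.790) and Rhoc 0.40 (FDR 0.843). Without the library labelled heterozygote, the lowest control of Rhoc, 2 genes of this list were lower and 1 higher, and Rhoc did not pass (0.70, exact test of edgeR, FDR 0.141).

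In the list of actin filament assembly, which holds the partners of Enah and Vasp, 3 of 42 tested genes fell and 2 rose. The other 37 did not pass, and the background over all tested genes was 5.49% lower and 1.81% higher. Wasf3, a subunit of the WAVE complex that activates branched actin, had 57.2, 54.7 and 62.4 CPM in the controls and 27.6 and 18.1 CPM in EpoR-null (log2 fold change -1.35, standard error 0.23, exact test of edgeR, FDR 7.26e-06). Its relative Wasf2 had 59.2, 66.7 and 53.0 CPM and then 38.5 and 33.3 CPM (log2 fold change -0.73, FDR 0.00321). The formin gene Diap1, the Diaph1 of newer annotations, had 53.0, 57.1 and 56.1 CPM and then 37.6 and 34.4 CPM (log2 fold change -0.62, FDR 0.00301). All of these had EpoR-null libraries below every control, as the rule for naming genes requires. The genes that rose, named after their values were seen, were the Arp2/3 subunits Arpc1a (0.37, FDR 0.0391) and Arpc3 (0.48, FDR 0.00781). With offsets Wasf3 kept -1.20 (likelihood-ratio test of edgeR, FDR 1.59e-06) and Wasf2 -0.55 (FDR 0.0368), and Diap1 had -0.40 (FDR 0.361), while Arpc1a had 0.06 and Arpc3 0.03 (FDR 0.9995 for each). Without the library labelled heterozygote 2 genes were lower and 0 higher, with Diap1, Arpc1a and Arpc3 no longer passing (exact test of edgeR, FDR 0.111, 0.297 and 0.199).

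In the list of cell junctions and apical polarity, where the constricting belt is attached, 4 of 24 genes fell and none rose. Of all tested genes 5.49% were lower and 1.81% higher, and in the longest quartile 19.2% were lower. The median log2 fold change of the list was -0.217, beside 0.0562 for all tested genes and -0.315 for the longest quartile. The median transcript length of the list, 4881.5 bases, was just below that quartile, which starts at 4947. Tjp1, the tight junction scaffold ZO-1, had 228, 225 and 226 CPM in the controls and 149.8 and 101 CPM in EpoR-null (log2 fold change -0.85, exact test of edgeR, FDR 0.00235). Mllt4, the afadin gene that ties nectins to actin, had 184, 174 and 174 CPM and then 111 and 108 CPM (log2 fold change -0.69, FDR 3.05e-05). Luzp1 had 162, 149.6 and 161 CPM and then 102 and 109.8 CPM (log2 fold change -0.58, FDR 0.00138). These junction genes had a narrow range among the controls, a trait that selection by the test favours. The remaining gene of the 4 that fell, named after its values were seen, was the polarity gene Pard3 (-0.43, FDR 0.0371). With offsets none of the 24 passed, and Tjp1 had -0.49 (likelihood-ratio test of edgeR, FDR 0.0783), Mllt4 -0.26 (FDR 0.914), Pard3 -0.22 (FDR 0.850) and Luzp1 -0.13 (FDR 0.9995). Of the 24, Tjp1 and Mllt4 alone were called lower without the library labelled heterozygote.

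In the focal adhesion list, which surrounds Vcl, 3 of 23 genes fell and none rose, beside 5.49% and 1.81% of all tested genes. Itga6, an integrin subunit for laminin, had 75.4, 78.8 and 71.0 CPM in the controls and 33.6 and 40.5 CPM in EpoR-null (log2 fold change -1.02, standard error 0.16, exact test of edgeR, FDR 5.06e-07). Tln2, a talin gene whose product binds vinculin, had 64.8, 74.2 and 66.8 CPM and then 45.4 and 51.8 CPM (log2 fold change -0.50, FDR 0.0312). With offsets Itga6 kept -0.93 (likelihood-ratio test of edgeR, FDR 0.000412), whereas Tln2 had 0.12. Itga6 has a transcript of 4310 bases, shorter than that of Tln2 (12132). Without the library labelled heterozygote 2 genes were lower, and Tln2 did not pass (exact test of edgeR, FDR 0.221).

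Of the Abl partners and substrates 2 of 9 fell and none rose, beside 5.49% and 1.81% of all tested genes. The adaptor gene Crkl had 107, 113 and 109 CPM in the controls and 75.9 and 68.6 CPM in EpoR-null (log2 fold change -0.60, exact test of edgeR, FDR 0.000641). Grlf1, the p190 RhoGAP gene called Arhgap35 in newer annotations, had 240.0, 238 and 237 CPM and then 162 and 169 CPM (log2 fold change -0.53, FDR 0.00299). With offsets Crkl had -0.43 (likelihood-ratio test of edgeR, FDR 0.134) and Grlf1 -0.01. Crkl also passed without the library labelled heterozygote (exact test of edgeR, FDR 0.0434) and Grlf1 did not (FDR 0.0525). None of the 8 protein kinase C and calmodulin genes, the regulators of Marcks and Marcksl1, was called by the exact test, with log2 fold changes from -0.278 to 0.537 and 2 negative values.

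**Figure D5:**
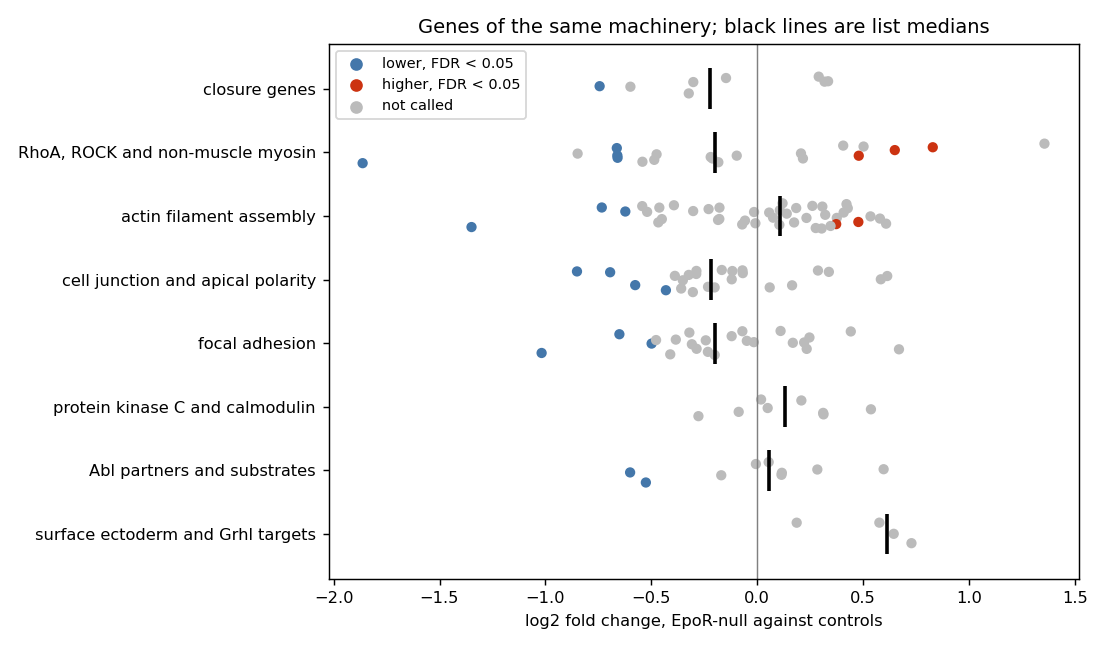
Log2 fold change, EpoR-null against controls (horizontal axis), of each tested gene of the closure genes and of 7 lists of related machinery (rows, with points spread vertically for legibility). Genes at FDR < 0.05 in the exact test of edgeR are blue where lower and red where higher, others are grey, and black lines are list medians. In this test lower calls outnumber higher ones in each list with calls. The same holds for all tested genes, where 75.2% of the 928 calls were lower, beside 76.2% of the 21 calls in the lists. DESeq2 gives 4 lower and 9 higher for actin filament assembly and 0 lower and 2 higher for protein kinase C and calmodulin. The junction and focal adhesion lists have 4 and 3 lower calls and no higher ones.

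EpoR signals through the transcription factor STAT5, and the promoters of the closure genes, 250 bases before to 50 after the start site in RefSeq on GRCm38.p6, were searched for its palindromic site TTCNNNGAA. RefSeq gave 10 promoters for 8 of the closure genes. None held TTCNNNGAA on either strand, which 8.3% of all 32851 promoters held, and none held the palindromic motif of NRF1, which 0.971% held. At these shares 10 promoters are too few to show a shortage of either motif. GGGCGG, the GC box, was present on either strand in 8 of the 10 promoters and in 35.7% of all. The SRF CArG box, present in 1.63% of all promoters, was found in that of Vcl alone. The windows below show this box in Vcl (chr14:20929161-20929190, plus strand), which did not pass the test, and a GC box in Abl2 (chr1:156558744-156558773, plus strand), which did, with the motif in capitals.
Vcl: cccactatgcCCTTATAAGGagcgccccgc
Abl2: tgggcgagagggGGGCGGgagacgctctgt
The letters are matches in the sequence, not evidence of binding.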

How the data were processed

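PolyA RNA of 5 neural tubes was sequenced, and the authors deposited raw counts of reads per gene symbol, 1 table per library, without normalization. The submitters' processing notes list Trimmomatic 0.32, TopHat2 2.1.0, HTSeq 0.6.1 and build mm9, and the gene annotation is not given in the sources used here. HTSeq leaves out reads that align to several places or overlap several genes, so counts of close paralogues are lower limits. Its summary lines were left out of the library totals, and reads outside genes came to 8.11% to 11% of those aligned uniquely.

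The software was edgeR 4.0.16 under R 4.3.3, with DESeq2 1.42.0 as an alternative. Following the study, EpoR-null libraries were compared with wild type and heterozygote together by TMM normalization, tagwise dispersions and exactTest, with Benjamini-Hochberg adjustment (FDR) over all genes tested. Genes with CPM above 1 in at least 2 libraries were tested (12703 of 23284), and calls were made at FDR < 0.05. Standard errors came from the negative binomial information, and 95% intervals are 1.96 standard errors wide on each side. Offsets were loess fits (span 0.5) on length and then GC content of the longest GENCODE M21 transcript, matched by symbol for 99% of tested genes. Ratios had 0.5 added to each CPM before the log. Several of the fits were run on simulated data with or without a length trend. That check set no limit on false calls, and its outcome is not reported here. No pair of libraries agreed within sampling noise (lowest chi-square per degree of freedom 13.3).

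The closure genes and the lists were chosen with earlier results of these data known, including the trend on transcript length. Genes named from a list are the 3 with the largest change at FDR < 0.05 with both EpoR-null libraries beyond all controls, unless the text says otherwise. One gene that this rule selects is not reported here. Intervals from reads cover counting error only.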

Additional observations from a re-analysis of the deposited data

How the results depend on the processing

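The number of genes called depended on the test, the offsets and single libraries. For all genes, the closure genes and the 7 lists, the exact test called 928, 1 and 21 genes. The quasi-likelihood F-test called 0, 0 and 0 (lowest FDR 0.059, 3052 genes at an unadjusted p below 0.05), and so did this F-test with offsets (a setting added after seeing the data) and with offsets and the replicate block. The likelihood-ratio test with offsets called 169, 0 and 5, and DESeq2 called 1737, 3 and 37. The added requirement of p < 0.001 in the exact test of edgeR left 606 of all genes. The closure genes called were 2 in the likelihood-ratio test without offsets and 2 with at least 10 reads in every library, Enah being the second in both. The share of lower genes among all calls was 75.2% with the exact test and 66.9% with DESeq2, and ran from 52.5% (without EpoR-null replicate 1) to 96.5% (without wild type replicate 1). DESeq2 called 4 lower and 9 higher genes of actin filament assembly and 0 and 2 of protein kinase C and calmodulin, and scaling by library size alone called 3 and 3 of the RhoA list.

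With each library left out in turn, calls ran from 115 (without wild type replicate 1) to 3778 (without EpoR-null replicate 1) for all genes, from 0 to 3 for the closure genes and from 4 to 54 for the lists. Calls for all genes were 313 without wild type replicate 2, 253 without the library labelled heterozygote and 1654 without EpoR-null replicate 2. Without wild type replicate 2 and the library labelled heterozygote the lists had 11 and 10 calls. Over the same fits the log2 fold change of Marcks ran from -0.329 to 0.763. The difference in log2 ratio ran from -0.802 to 0.602 for Marcks to Marcksl1 and from -0.546 to 0.126 for Grhl2 to Grhl3. It kept its sign for Enah to Vasp (-1.18 to -0.661) and Abl2 to Abl1 (-0.551 to -0.335). No ratio was computed with length and GC offsets. In the likelihood-ratio test with offsets the log2 fold changes were 0.0177 for Enah, 0.0194 for Vasp, -0.186 for Abl2 and -0.0579 for Abl1.

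Offsets reversed the sign of Enah, Marcksl1 and Vcl, to 0.0177, -0.0617 and 0.0475 in the likelihood-ratio test, 0.0178, -0.0618 and 0.0476 in the quasi-likelihood F-test, and 0.00457, -0.0553 and 0.0406 with the replicate block. Abl2 stayed negative in all 17 alternatives (-0.878 to -0.186) and lost its call in 5 of them, those with offsets, the quasi-likelihood F-test and the fit without wild type replicate 1. Shroom3, Abl1 and Vasp kept their sign in all 17.

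The labels tie libraries only by a replicate number. With the replicate block the quasi-likelihood F-test called 695 genes, 1 closure gene (Abl2, FDR 0.041) and 16 list genes, with 2 lower and 3 higher in actin filament assembly. Same-numbered libraries deviated together across genes, with a Pearson correlation of 0.468 and a Spearman correlation of 0.538, which 2 pairs cannot establish as a pairing.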

Other observations

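The following 3 genes of the actin filament assembly list were picked after their values were seen. Actb, the gene of beta-actin, had 1806, 2045 and 1585 CPM in the controls and 2308 and 2566 CPM in EpoR-null, and Actg1 had 2216, 2518 and 2173 CPM and then 2887 and 3280 CPM. The filament-severing factor gene Cfl1 had 1049, 1073 and 1015 CPM in the controls and 1300 and 1414 CPM in EpoR-null. None of these overlapped between the groups, as was true of 21.2% of all tested genes in this direction, and none was called by the exact test of edgeR. With offsets for length and GC content the log2 fold changes of Actb, Actg1 and Cfl1 were 0.15, 0.13 and 0.17.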
